A study of Mus musculus with 12 samples.

Results

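Prtg, the related receptors of the DCC family (Igdcc3, Igdcc4, Neo1 and Dcc), the 4 Unc5 receptors and the ligand Ntn1 were followed in neurons made from mouse D3 embryonic stem cells. These 10 genes were a named list, and each was read from the probe set that carried its symbol alone. Where a symbol had more than 1 such probe set, the one with the highest mean over the arrays was taken. All 10 were found among 19938 genes, and all 10 lay among the 14953 that passed the limit on dim signals. The genes were chosen by name, with Prtg and Igdcc3 selected on their higher array levels in both knockdown lines. Their differences from either control line, between the control lines and between the knockdown lines are therefore given as a description without a test. The differences of the knockdown lines from the scrambled control are a description for all 10 genes. The 8 other genes were tested against unmodified cells and between the knockdown lines.

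Total RNA was read with 1-colour whole-transcript arrays at day 16 of a differentiation that ran through embryoid bodies without the self-renewal factor LIF. The 4 groups were a line with knockdown of the arginine methyltransferase PRMT1 (siPRMT1), a line with knockdown of PRMT8 (siPRMT8), a line given a scrambled sequence (siSCR) and the unmodified D3 cells. All 4 derive from D3 and each is 1 line with 3 biological replicates, so the history of a line and its knockdown cannot be told apart. The labels do not say whether replicates were separate differentiations, and p-values measure only the spread between these arrays.

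In the whole series Prmt1 read 7.59 to 7.95 in siPRMT1, 9.20 to 9.27 in siPRMT8, 8.74 to 8.86 in siSCR and 8.69 to 8.86 in D3 (log2 levels). Prmt8 read 6.35 to 6.89 in siPRMT1, 6.17 to 6.44 in siPRMT8, 6.60 to 7.18 in siSCR and 7.37 to 7.41 in D3, so its values in the 2 knockdown lines overlapped. Principal component 1 (61.4% of the variance) ran from 13.6 to 25.7 in the knockdown arrays, was -26.2 and -22.2 in siSCR replicates 2 and 3, and ran from -22.7 to -21.6 in D3. siSCR replicate 1 lay between them, at 0.105. Differences of the knockdown lines from siSCR in the 10 genes are therefore also given without replicate 1. Counts and shares of arrays that do not overlap, and list medians, are given with all siSCR arrays. The mean level of 15 neuron markers was 8.27 to 8.50 in siPRMT1, 8.43 to 8.63 in siPRMT8, 8.52, 9.56 and 9.51 in siSCR replicates 1, 2 and 3, and 9.51 to 9.63 in D3. The markers of the labelled cell type were thus read in every array, and were lower in both knockdown lines and in siSCR replicate 1. Each array read a whole culture, in which fewer cells of a type and less RNA per cell cannot be told apart.

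DCC-family receptors are membrane proteins with immunoglobulin and fibronectin type III domains outside the cell. Netrin-1, the secreted product of Ntn1, attracts growing axons through DCC and repels them where UNC5 receptors take part. Neogenin (Neo1) binds netrins and the repulsive guidance molecules. Protogenin (Prtg) and the products of Igdcc3 and Igdcc4 are less studied relatives, known mostly from the early embryo, where Prtg marks the neural tube before neurons form.

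Prtg was the member whose level spanned the widest range. It read 8.29, 10.18 and 9.06 in siPRMT1, 9.64, 9.03 and 9.56 in siPRMT8, 7.21, 7.16 and 6.98 in siSCR, and 7.71, 8.27 and 7.5 in D3 (log2 levels, replicates 1 to 3). All 6 knockdown arrays lay above all 6 control arrays, but only just: the lowest knockdown array, siPRMT1 replicate 1, stood at 8.29 and the highest control array, D3 replicate 2, at 8.27. Of all tested genes, 7.06% had all 6 knockdown arrays above all 6 control arrays. The difference was 2.06 in siPRMT1 and 2.29 in siPRMT8 against siSCR (log2, SE 0.371 for both). Against D3 it was smaller, 1.35 in siPRMT1 and 1.58 in siPRMT8, a factor of 2.54 and 2.99. The siPRMT1 arrays spread over 1.89, more than in 99.9% of tested genes, and without siPRMT1 replicate 2 the difference from D3 fell to 0.85. Without siSCR replicate 1 the differences from siSCR were 2.10 and 2.34.

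Igdcc3, which encodes a DCC-family receptor of the early neural tube and other embryonic tissues, also had its lowest mean in siSCR and the next in D3. Unlike for Prtg, its D3 arrays were not set apart from the knockdowns. Its level was 8.11, 9.13 and 8.53 in siPRMT1, 8.66, 8.33 and 8.72 in siPRMT8, 7.45, 7.34 and 7.37 in siSCR, and 8.09, 8.73 and 8.11 in D3. The siSCR arrays stood below all others, and the D3 arrays overlapped both knockdown lines. Against siSCR the difference was 1.21 in siPRMT1 and 1.18 in siPRMT8 (SE 0.231 for both), and without siSCR replicate 1 it was 1.24 and 1.22. Against D3 it was only 0.28 in siPRMT1 (95% interval -0.22 to 0.79) and 0.26 in siPRMT8 (-0.24 to 0.77). Single arrays moved the difference of siPRMT1 from D3 both ways, to 0.01 without siPRMT1 replicate 2, 0.52 without siPRMT1 replicate 1 and 0.49 without D3 replicate 2. In siPRMT8 it ran from 0.15 without D3 replicate 1 to 0.47 without D3 replicate 2. The higher Igdcc3 level in the knockdowns was thus seen against siSCR, while the D3 arrays overlapped both lines. The intervals describe the spread and are no test, since Igdcc3 was chosen for its higher knockdown levels.

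The control lines also differed from each other. For Prtg and Igdcc3, whose choice drew on the siSCR arrays, that difference is given as a description: Igdcc3 read -0.92 (SE 0.231) and Prtg -0.71 (SE 0.371) in siSCR minus D3, on the log2 scale. Without siSCR replicate 1 these differences were -0.95 and -0.76. Dcc, the netrin-1 receptor of commissural and other axons, was tested and did not pass (log2 -0.82, SE 0.245, limma adjusted p = 0.273, 95% interval -1.35 to -0.28). Without siSCR replicate 1 its difference was -0.62 (adjusted p = 0.605). For these 3 genes every siSCR array lay below every D3 array, which held for 9.56% of tested genes. Of the 8 genes tested, none passed and 1, Dcc, had an unadjusted p under 0.05 (limma), while 0.154% of all tested genes passed in either direction. With the replicate number as a block 15 genes passed in place of 23, and none of the 8 was among them.

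**Figure D1:**
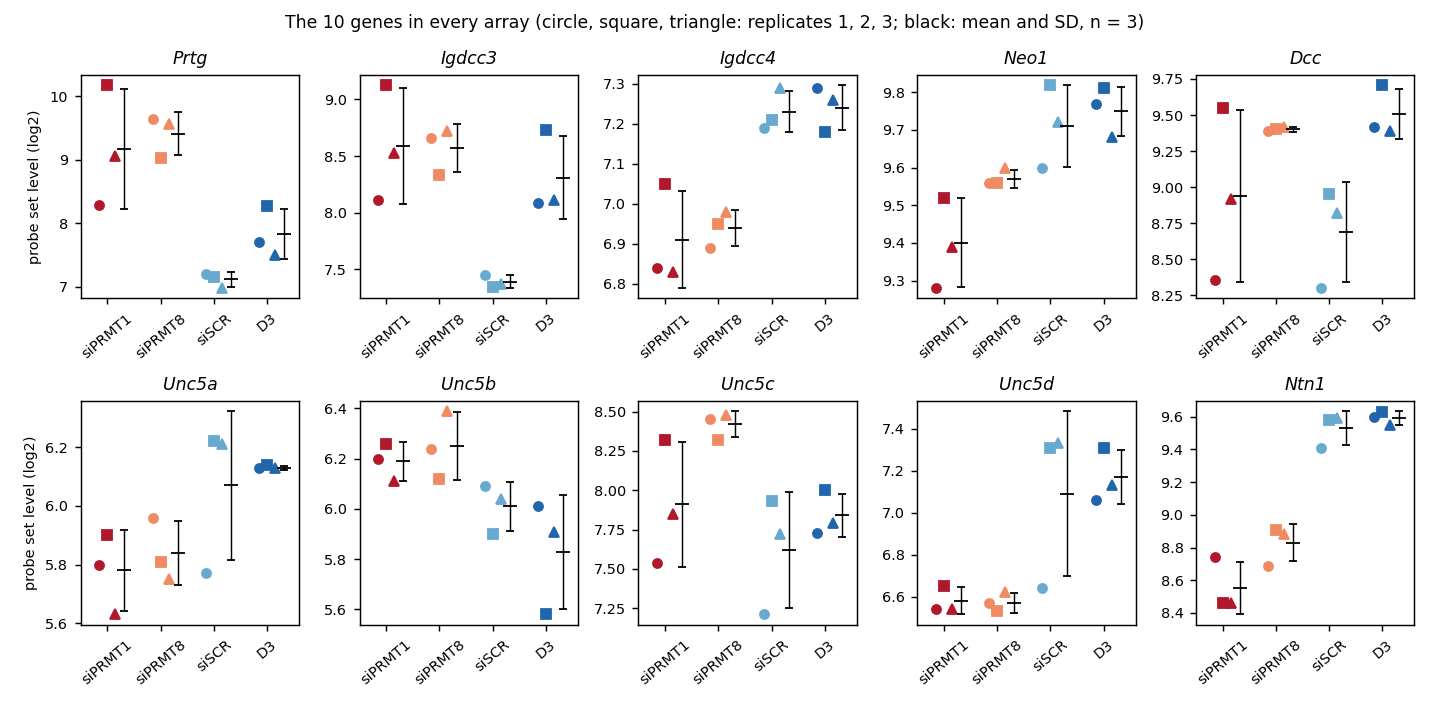
Log2 probe set level of the 10 genes in each of the 12 arrays (vertical axis, its scale differs between panels), with siPRMT1, siPRMT8, siSCR and D3 from left to right and black bars for mean and SD of 3 arrays. Prtg is higher in the 6 knockdown arrays (8.29 to 10.18) than in the 6 control arrays (6.98 to 8.27), Ntn1 and Igdcc4 are lower there, and Igdcc3 is low only in siSCR.

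Igdcc4 and Igdcc3 are neighbours on chromosome 9 with no other protein-coding gene listed between them, and Prtg and Neo1 lie on the same chromosome. Promoters of Prtg and Igdcc3, which were both higher against siSCR, and of Igdcc4, which was lower, are printed so that their bases can be set side by side. Each runs from 250 bases before to 50 bases after an annotated start (RefSeq, GRCm38.p6), 5′ to 3′. Capitals mark the GC box GGGCGG and the CCAAT box CCAAT on either strand.
Prtg promoter (chr9:72807024-72807323, plus strand): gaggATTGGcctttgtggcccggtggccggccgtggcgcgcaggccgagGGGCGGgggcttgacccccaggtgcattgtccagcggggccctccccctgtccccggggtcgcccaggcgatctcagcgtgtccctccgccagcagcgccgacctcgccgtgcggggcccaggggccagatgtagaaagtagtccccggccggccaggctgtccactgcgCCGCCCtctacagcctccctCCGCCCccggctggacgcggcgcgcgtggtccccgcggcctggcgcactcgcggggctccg
Igdcc3 promoter (chr9:65140904-65141203, plus strand): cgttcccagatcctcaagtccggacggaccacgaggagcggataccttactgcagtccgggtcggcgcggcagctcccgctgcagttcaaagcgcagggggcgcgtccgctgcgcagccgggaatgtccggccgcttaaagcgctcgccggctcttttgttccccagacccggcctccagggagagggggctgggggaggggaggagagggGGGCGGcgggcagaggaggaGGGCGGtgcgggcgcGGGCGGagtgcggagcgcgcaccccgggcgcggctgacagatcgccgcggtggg
Igdcc4 promoter (chr9:65101236-65101535, plus strand): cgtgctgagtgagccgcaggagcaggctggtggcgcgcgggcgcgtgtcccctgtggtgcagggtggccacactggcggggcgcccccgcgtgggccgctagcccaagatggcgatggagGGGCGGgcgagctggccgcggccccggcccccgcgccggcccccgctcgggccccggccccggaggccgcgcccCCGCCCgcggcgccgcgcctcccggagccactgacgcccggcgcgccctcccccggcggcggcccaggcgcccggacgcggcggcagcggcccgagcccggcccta
The Prtg promoter held 3 GC boxes, which begin at positions -201, -31 and -11 from the start, and 1 CCAAT box. Igdcc3 held 3 GC boxes, at positions -39, -19 and -4, and Igdcc4 held 2, while neither held a CCAAT box in this window. A GC box on either strand was found in 35.7% and a CCAAT box in 37.4% of all 32851 promoters of this length. The E-box CANNTG, found in 72.3% of promoters, matched at 2 places in Prtg and at none in Igdcc3 or Igdcc4. The TATA box TATAAA, found in 13.6%, matched in none of the 3. No matches of these 4 motifs overlapped in the 3 promoters. All 3 were rich in CG dinucleotides, with 35 in Prtg, 38 in Igdcc3 and 49 in Igdcc4 against a median of 7 over all promoters. Promoters were found for 7 of the 10 genes, and a GC box was present in 6 of those 7. These are letter matches only, and GC boxes were present whether the gene was higher or lower in the knockdowns.

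Igdcc4, whose product is a DCC-family receptor also known as Nope, fell slightly in both knockdowns. It read 6.84, 7.05 and 6.83 in siPRMT1, 6.89, 6.95 and 6.98 in siPRMT8, 7.19, 7.21 and 7.29 in siSCR, and 7.29, 7.18 and 7.26 in D3. All knockdown arrays lay below all control arrays, as they did in 9.49% of tested genes. Against D3 it fell in siPRMT1 (log2 -0.33, SE 0.0691, limma adjusted p = 0.00473) and in siPRMT8 (log2 -0.30, SE 0.0691, adjusted p = 0.00807). The call held whichever array of the compared groups was left out, with an adjusted p of 0.0381 or less. The fall is 1.26-fold and 1.23-fold, small beside the Prtg difference. The differences from siSCR were -0.32 in siPRMT1 and -0.285 in siPRMT8, and -0.341 and -0.305 without siSCR replicate 1.

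Neo1 fell in siPRMT1. Its level was 9.28, 9.52 and 9.39 in siPRMT1, 9.56, 9.56 and 9.60 in siPRMT8, 9.60, 9.82 and 9.72 in siSCR, and 9.77, 9.81 and 9.68 in D3. Against D3 it fell by 0.35 in siPRMT1 (log2 -0.35, SE 0.0754, adjusted p = 0.00561), with an adjusted p of 0.0273 or less without any 1 array. In siPRMT8 the difference was -0.18 and did not pass (adjusted p = 0.103), although all 3 arrays lay below all D3 arrays, as in 25.3% of tested genes. The difference between the knockdown lines was -0.18 (siPRMT1 minus siPRMT8, 95% interval -0.34 to -0.01, adjusted p = 0.38). The differences from siSCR were -0.32 in siPRMT1 and -0.14 in siPRMT8, and -0.37 and -0.20 without siSCR replicate 1.

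Dcc spread widely among the siPRMT1 replicates. It read 8.36, 9.55 and 8.92 in siPRMT1, 9.39, 9.40 and 9.42 in siPRMT8, 8.30, 8.95 and 8.82 in siSCR, and 9.42, 9.71 and 9.39 in D3. The siPRMT8 arrays lay close together (SD 0.015) and overlapped D3, whereas the siPRMT1 arrays spread over 1.19, more than in 99.1% of tested genes. Against D3 Dcc lay 0.56 lower in siPRMT1 (log2 -0.56, SE 0.245, adjusted p = 0.11) and 0.10 lower in siPRMT8 (log2 -0.10, adjusted p = 0.784), and neither passed. The siPRMT1 value depended on single replicates: it was -0.27 without replicate 1 (adjusted p = 0.343) and -0.87 without replicate 2 (adjusted p = 0.00687). With the replicate number as a block -0.56 passed (adjusted p = 0.0474). Against siSCR the differences were 0.26 in siPRMT1 and 0.71 in siPRMT8, and 0.06 and 0.52 without siSCR replicate 1. The siPRMT1 value was 0.55 without siPRMT1 replicate 1 and turned to -0.05 without siPRMT1 replicate 2.

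Ntn1, the netrin-1 gene, showed the largest fall among the 10. Its level was 8.74, 8.46 and 8.46 in siPRMT1, 8.69, 8.91 and 8.88 in siPRMT8, 9.41, 9.58 and 9.59 in siSCR, and 9.60, 9.63 and 9.55 in D3. The 6 knockdown arrays ended at 8.91 and the 6 control arrays began at 9.41. All knockdown arrays lay below all control arrays in 9.49% of tested genes. Against D3 Ntn1 fell by 1.04 in siPRMT1 (log2 -1.04, SE 0.0896, 2.05-fold, adjusted p = 0.000166) and by 0.76 in siPRMT8 (log2 -0.76, SE 0.0896, 1.70-fold, adjusted p = 0.000468). No array decided the call, with an adjusted p of 0.00383 or less without any 1 array of the compared groups. In siPRMT1 the level was lower than in siPRMT8 by 0.27 on the log2 scale (log2 -0.27, 95% interval -0.47 to -0.08), which did not pass (adjusted p = 0.268). Against siSCR the differences were -0.97 and -0.70, and -1.03 and -0.76 without siSCR replicate 1.

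siSCR replicate 1, whose neuron marker level of 8.52 lay near the knockdown arrays, is described here gene by gene. The share of all tested genes with their lowest siSCR level in this array was not taken, so nothing is read from the number of receptors that had it. Ntn1 read 9.41 there, against 9.58 and 9.59 in siSCR replicates 2 and 3, and still lay above every knockdown array. Igdcc4 (7.19) and Neo1 (9.60) were likewise the lowest of the siSCR arrays. Dcc (8.30), Unc5a (5.77), Unc5c (7.21) and Unc5d (6.64) were lower there than in siSCR replicates 2 and 3 as well, and each lay within or below the range of the siPRMT1 arrays. Prtg (7.21), Igdcc3 (7.45) and Unc5b (6.09) were highest there among the siSCR arrays and stayed below every knockdown array. The part of the neuron marker level in the falls of the receptors was not tested.

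The 4 Unc5 receptors, which carry a death domain inside the cell and bind netrins outside it, did not move together. Unc5d fell in both knockdowns. It read 6.54, 6.65 and 6.54 in siPRMT1, 6.57, 6.53 and 6.62 in siPRMT8, 6.64, 7.31 and 7.33 in siSCR, and 7.06, 7.31 and 7.13 in D3. Against D3 it fell by 0.59 in siPRMT1 (log2 -0.59, SE 0.15, adjusted p = 0.0137) and by 0.60 in siPRMT8 (log2 -0.60, SE 0.15, adjusted p = 0.0124). Without D3 replicate 2 the falls of 0.52 in each line no longer passed (adjusted p = 0.0584 in siPRMT1 and 0.0515 in siPRMT8). The differences from siSCR were -0.51 in siPRMT1 and -0.52 in siPRMT8, and -0.74 and -0.75 without siSCR replicate 1. A second probe set for Unc5d was lower in both knockdowns too, at 5.83 to 6.05 in siPRMT1 and 5.97 to 6.12 in siPRMT8, against 6.02, 6.79 and 6.84 in siSCR and 6.70 to 6.72 in D3.

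Unc5b, best known from blood vessels as well as axons, was the Unc5 gene that rose in both lines against D3. It read 6.20, 6.26 and 6.11 in siPRMT1, 6.24, 6.12 and 6.39 in siPRMT8, 6.09, 5.90 and 6.04 in siSCR, and 6.01, 5.58 and 5.91 in D3. All knockdown arrays lay above all control arrays, as in 7.06% of tested genes, with siPRMT1 replicate 3 only just above siSCR replicate 1. Against D3 it rose by 0.36 in siPRMT1 (SE 0.109, adjusted p = 0.0318) and by 0.42 in siPRMT8 (SE 0.109, adjusted p = 0.0152). Without D3 replicate 2 the values were 0.23 (adjusted p = 0.117) and 0.29 (adjusted p = 0.0534). The siPRMT1 call was also lost without siPRMT1 replicate 1 (adjusted p = 0.0649), siPRMT1 replicate 2 (adjusted p = 0.0658) or D3 replicate 3 (adjusted p = 0.0532), and the siPRMT8 call without siPRMT8 replicate 3 (adjusted p = 0.0686). The differences from siSCR were smaller, 0.18 in siPRMT1 and 0.24 in siPRMT8, and 0.22 and 0.28 without siSCR replicate 1. siSCR itself lay 0.17 above D3. Unc5b was dim, with a mean of 6.07 that lay above only 14.6% of tested genes.

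Unc5c, a receptor for axon repulsion, passed in siPRMT8 and not in siPRMT1, and the call was fragile. Its level was 7.54, 8.32 and 7.85 in siPRMT1, 8.45, 8.32 and 8.48 in siPRMT8, 7.21, 7.93 and 7.72 in siSCR, and 7.73, 8.00 and 7.79 in D3. Against D3 it rose by 0.58 in siPRMT8 (SE 0.197, adjusted p = 0.0468), a call lost without any 1 array of the 2 groups (adjusted p = 0.063 to 0.14). In siPRMT1 the difference from D3 was 0.07 (95% interval -0.36 to 0.50, adjusted p = 0.824), and -0.14 without siPRMT1 replicate 2. The differences from siSCR were 0.29 in siPRMT1 and 0.80 in siPRMT8, and 0.08 and 0.59 without siSCR replicate 1. The direct difference of siPRMT1 minus siPRMT8 was -0.51 (SE 0.197, adjusted p = 0.336). It passed without siPRMT1 replicate 2, as did that of Dcc, with values of -0.72 for Unc5c (adjusted p = 0.0381) and -0.76 for Dcc (adjusted p = 0.0436).

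Unc5a, a netrin receptor of developing neurons, read 5.80, 5.90 and 5.63 in siPRMT1, 5.96, 5.81 and 5.75 in siPRMT8, 5.77, 6.22 and 6.21 in siSCR, and 6.13, 6.14 and 6.13 in D3. In siPRMT1 it fell by 0.35 against D3 (log2 -0.35, SE 0.114, adjusted p = 0.0416), and in siPRMT8 it lay 0.29 lower without passing (log2 -0.29, adjusted p = 0.0818). The siPRMT1 call was lost without siPRMT1 replicate 1 (adjusted p = 0.0691), siPRMT1 replicate 3 (0.138), D3 replicate 1 (0.0976), D3 replicate 2 (0.1) or D3 replicate 3 (0.0968). Without siSCR replicate 1, which enters through the shared estimate of the spread, the siPRMT8 value passed too (adjusted p = 0.0153). The differences from siSCR were -0.29 in siPRMT1 and -0.23 in siPRMT8, and -0.435 and -0.373 without siSCR replicate 1. Unc5a was dim, with a mean of 5.95 that lay above only 11.8% of tested genes.

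**Figure D2:**
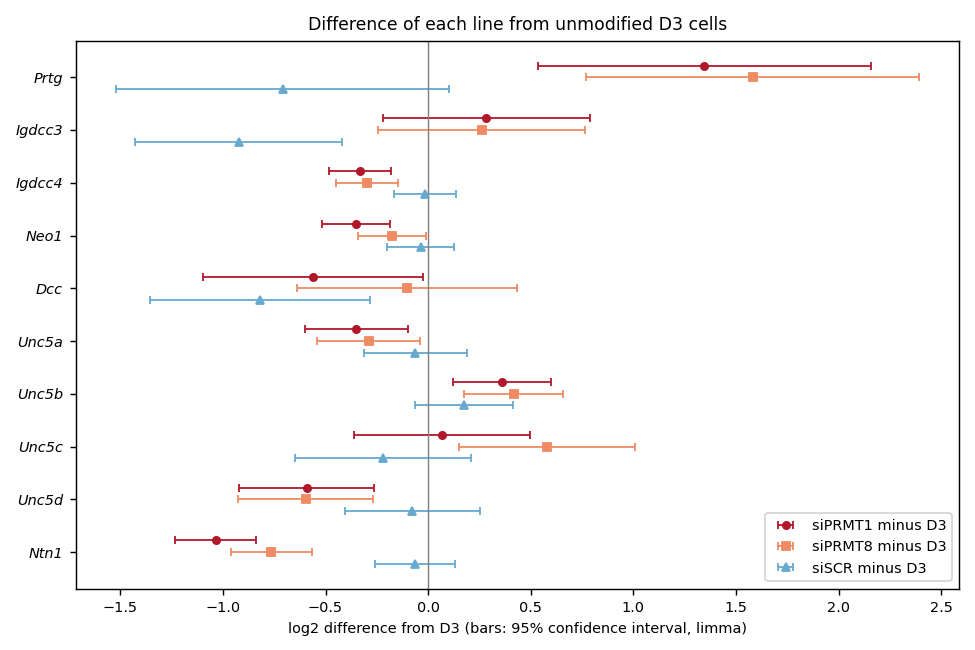
Log2 difference from unmodified D3 cells (horizontal axis) of the 10 genes in siPRMT1, siPRMT8 and siSCR, with 95% confidence intervals from limma and 3 arrays per group. For Prtg and Igdcc3 the intervals are a description. Ntn1 lies at -1.04 and -0.76 in the knockdowns and at -0.06 in siSCR, Prtg at 1.35 and 1.58 in the knockdowns, and Igdcc3 and Dcc lie lowest in siSCR.

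Counted over the 8 genes other than Prtg and Igdcc3, 6 passed in siPRMT1 against D3, with 5 lower and 1 higher, where 26.4% of all tested genes passed (14.7% lower and 11.7% higher). In siPRMT8 against D3 5 of 8 passed, with 3 lower and 2 higher, where 27.7% of all tested genes passed (15.2% lower and 12.5% higher). Both comparisons share the D3 arrays. Over all 10 genes, the arrays did not overlap with D3 for 7 in siPRMT1 (44.2% of all tested genes) and for 8 in siPRMT8 (52.6%). These counts include Prtg, which was chosen for its higher knockdown levels. The others were Igdcc4, Neo1, Unc5a, Unc5b, Unc5d and Ntn1 in both lines, and Unc5c in siPRMT8 only. Of the 8 tested genes, the number that passed fell to 3 in siPRMT1 and 2 in siPRMT8 without D3 replicate 2, and to 3 in siPRMT8 without siPRMT8 replicate 3. Only Igdcc4 and Ntn1 passed in both lines whichever array of the compared groups was left out. Against siSCR, the contrast behind the choice of Prtg and Igdcc3, the groups did not overlap for 6 of 10 genes in siPRMT1 (30% of all tested genes) and 8 of 10 in siPRMT8 (41.8%). Both Prtg and Igdcc3 are among them in each line, so nothing is read from these counts of genes without overlap.

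Between siPRMT1 and siPRMT8 directly, none of the 8 genes other than Prtg and Igdcc3 passed, and 0.154% of all tested genes did. Neo1, Unc5c and Ntn1 had an unadjusted p under 0.05 (limma). Prtg and Igdcc3 were chosen for higher levels in both lines, which favours likeness between the lines, so their differences are a description. Prtg differed by -0.24 (siPRMT1 minus siPRMT8, 95% interval -1.05 to 0.58) and Igdcc3 by 0.02 (-0.48 to 0.53). Without siPRMT1 replicate 2 Prtg differed by -0.74.

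Within siPRMT1 and within D3, Prtg, Igdcc3, Dcc and Unc5c deviated together from array to array. In siPRMT1 replicate 2 Prtg lay 1.0 above its group mean, Dcc 0.61, Igdcc3 0.54 and Unc5c 0.42. In siPRMT1 replicate 1 the same genes lay below their means, by -0.89 for Prtg, -0.58 for Dcc, -0.48 for Igdcc3 and -0.37 for Unc5c. With the group means removed, Pearson's r over the 12 arrays was 0.96 between Prtg and Igdcc3, 0.79 between Prtg and Dcc, 0.70 between Prtg and Unc5c, and -0.58 between Prtg and Ntn1. Dcc and Unc5c had an r of 0.96, and Neo1 had 0.93 with Dcc and 0.94 with Unc5c. In siSCR Prtg did not follow Dcc and Unc5c. In siSCR replicate 1 Dcc and Unc5c lay at -0.39 and -0.41 and Prtg at 0.09. In siSCR replicate 3 they lay at 0.13 and 0.10 and Prtg at -0.14. In siPRMT8 Prtg ran from -0.38 to 0.23 and Dcc only from -0.02 to 0.01. These values describe 12 arrays in which all genes share the RNA of each culture, and 2 arrays of siPRMT1 carry much of the spread.

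**Figure D3:**
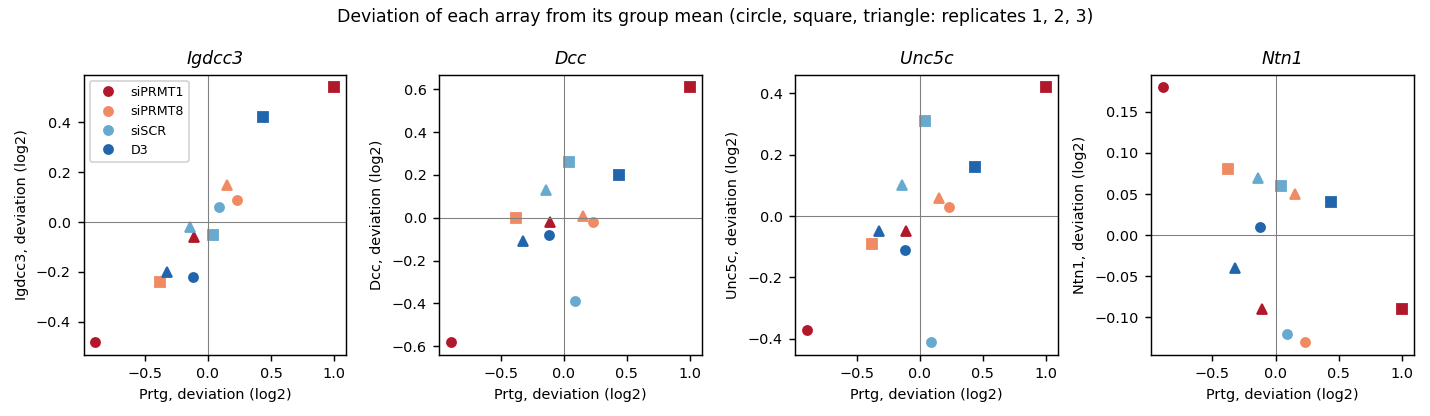
Deviation of each array from the mean of its group (log2), with Prtg on the horizontal axis and Igdcc3, Dcc, Unc5c or Ntn1 on the vertical axis, coloured by group and with 1 symbol per replicate number. siPRMT1 replicates 2 and 1 lie at opposite ends (1.0 and -0.89 for Prtg), and Igdcc3 deviates with Prtg (r = 0.96). The siSCR arrays leave the pattern for Dcc and Unc5c, and the siPRMT8 arrays for Dcc.

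The levels of marker lists also differed between the siPRMT1 arrays. In siPRMT1 replicates 1, 2 and 3 the mean of 14 neural progenitor markers was 8.85, 9.22 and 9.01, that of 10 pluripotency markers 10.16, 9.28 and 9.98, and that of the neuron markers 8.27, 8.50 and 8.37. In the same arrays the neural crest markers read 7.18, 7.53 and 7.32, oligodendrocyte markers 6.18, 6.46 and 6.20, astrocyte markers 7.15, 6.93 and 7.32, and mesenchymal markers 7.53, 7.26 and 7.58. Each of the 10 genes but Ntn1 was highest of the 3 arrays in replicate 2, as were 42.7% of all tested genes. In that array progenitor, neuron, crest and oligodendrocyte markers were likewise highest, and pluripotency, astrocyte and mesenchymal markers lowest. Their part in the receptors' values was not tested.

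Over all 12 arrays the genes whose levels ran most like Prtg were Greb1l (r = 0.99), Efnb2 (0.98), Greb1 (0.98), Wnt1 (0.98), Igf2bp3 (0.98) and Grb10 (0.98). For Igdcc3 they were Mfsd2a (0.98), Sfrp2 (0.96), Fndc3c1 (0.95), Lhx2 (0.95), Zbtb16 (0.94) and Neurod4 (0.94). The lists share no gene, and r between Prtg and Igdcc3 themselves was 0.90. Greb1l averaged 8.32 in siPRMT1, 8.54 in siPRMT8, 6.98 in siSCR and 7.61 in D3. Mfsd2a averaged 7.63, 7.73, 6.83 and 7.52 in the same groups. Fndc3c1 averaged 9.46, 9.99, 7.36 and 8.61, so its D3 mean lay below both knockdowns, as did that of Greb1l and, by less, that of Mfsd2a. With group means removed, r to Prtg was 0.97 for Greb1l and r to Igdcc3 was 0.96 for Mfsd2a. Likeness of level says nothing of shared function.

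Other genes of netrin signalling were read from lists written from general knowledge. Of 14 tested ligands and co-receptors, 9 fell and none rose in siPRMT1 against D3 (limma, where 14.7% of all tested genes fell and 11.7% rose), with a median of -0.41 where all tested genes had 0.05. In siPRMT8 8 of 14 fell and none rose (all tested genes 15.2% and 12.5%, list median -0.39, all tested genes 0.03). Without any 1 array, 6 to 10 of them passed in siPRMT1 and 7 to 8 in siPRMT8. Dscam, a neuronal adhesion molecule that can act as a netrin-1 receptor, fell in siPRMT1 (log2 -1.82, SE 0.239, adjusted p = 0.000503) and in siPRMT8 (log2 -1.63, adjusted p = 0.000894). Lrrc4c, the receptor for the netrin-G1 protein, fell in siPRMT1 (log2 -1.74, adjusted p = 0.00313) and in siPRMT8 (log2 -1.55, adjusted p = 0.0057). Cbln4, a secreted protein that can bind DCC, fell in both as well (log2 -1.69 in siPRMT1, adjusted p = 0.000458, and -1.59 in siPRMT8, adjusted p = 0.000667). Draxin, a secreted guidance protein that binds netrin-1 and DCC, and Rgmb, a ligand of neogenin, were picked after their values were seen. In siPRMT1 Draxin fell by 1.02 (log2 -1.02, adjusted p = 0.000458) and Rgmb by 0.64 (log2 -0.64, adjusted p = 0.00115). In siPRMT8 the values were -0.92 for Draxin (adjusted p = 0.000815) and -0.71 for Rgmb (adjusted p = 0.000819). The list was also lower in the scrambled line, with a median of -0.20 in siSCR minus D3 and none passing. List means were 7.26, 7.67 and 7.64 in siSCR replicates 1 to 3, and 7.71 to 7.74 in D3. Against siSCR the list medians were -0.15 in siPRMT1 and -0.17 in siPRMT8 (all tested genes 0.04 and 0.01). Rgmb lay at -0.54 in siSCR minus D3, and differed from siSCR by only -0.11 and -0.17. For Draxin these values were -0.36, -0.66 and -0.56. For Cbln4 they were -0.77, -0.925 and -0.83. For Dscam they were -0.205, -1.61 and -1.42, and for Lrrc4c -0.28, -1.46 and -1.26.

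Of 28 intracellular partners of DCC and UNC5 receptors, 11 fell and 2 rose in siPRMT1 against D3 (median -0.14), and 10 fell and 1 rose in siPRMT8 (median -0.12). The medians of all tested genes were 0.05 and 0.03, with 14.7% lower and 11.7% higher in siPRMT1 and 15.2% lower and 12.5% higher in siPRMT8. In siSCR minus D3 the list median was -0.05, and against siSCR it was -0.10 in siPRMT1 and -0.09 in siPRMT8. Ablim3, an actin-binding LIM protein, fell in siPRMT1 (log2 -1.49, SE 0.279, adjusted p = 0.00271) and in siPRMT8 (log2 -1.65, adjusted p = 0.00166). Trim67, a neuronal ubiquitin ligase that binds DCC, fell in siPRMT1 (log2 -1.36, SE 0.22, adjusted p = 0.00128) and in siPRMT8 (log2 -1.12, adjusted p = 0.00354). Siah1b, a ubiquitin ligase, rose by 0.41 in both siPRMT1 (SE 0.0929, adjusted p = 0.00762) and siPRMT8 (adjusted p = 0.00692). Myo10, an unconventional myosin of filopodia, rose by 0.22 in siPRMT1 (adjusted p = 0.0385) and differed by -0.01 in siPRMT8 (adjusted p = 0.925). Of 4 genes named as partners of protogenin (Dnajb11, Radil, Itga5 and Itgb1) none passed in either line by limma, with 0 in siPRMT1 and 1 in siPRMT8 at an unadjusted p under 0.05.

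Neuron markers moved with these lists. Of 15, 13 fell in siPRMT1 (median -1.27) and 13 in siPRMT8 (median -1.06) against D3, among them Mapt (log2 -1.68 in siPRMT1) and Syt1 (log2 -1.66). Nefm went the other way without passing, at 0.14 in siPRMT1 and 0.41 in siPRMT8. The list median was -0.30 in siSCR minus D3. Against siSCR it was -0.97 in siPRMT1 and -0.76 in siPRMT8, with Nefm 0.80 and 1.08 higher. Of 6 astrocyte markers 6 fell in each line against D3 (median -1.29 and -1.18). Of 14 progenitor markers 6 fell and none rose in siPRMT1, and 4 fell and 2 rose in siPRMT8. Of the other lists, neural crest markers had 2 higher and 1 lower of 7 in siPRMT1 and 1 and 1 in siPRMT8. Mesenchymal markers had 2 lower of 8 in siPRMT1, and 3 lower and 1 higher in siPRMT8, and pluripotency markers had 2 higher of 10 in each line. Of 4 oligodendrocyte markers none passed in siPRMT1, where 2 had an unadjusted p under 0.05, and 1 fell in siPRMT8 (limma). Against 14.7% lower and 11.7% higher among all tested genes in siPRMT1, and 15.2% and 12.5% in siPRMT8, the counts of the crest, mesenchymal, pluripotency and oligodendrocyte lists rest on 1 to 3 genes in a direction, and nothing is read from them. The part of the neuron and astrocyte markers in the lower netrin pathway genes was not tested.

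**Figure D4:**
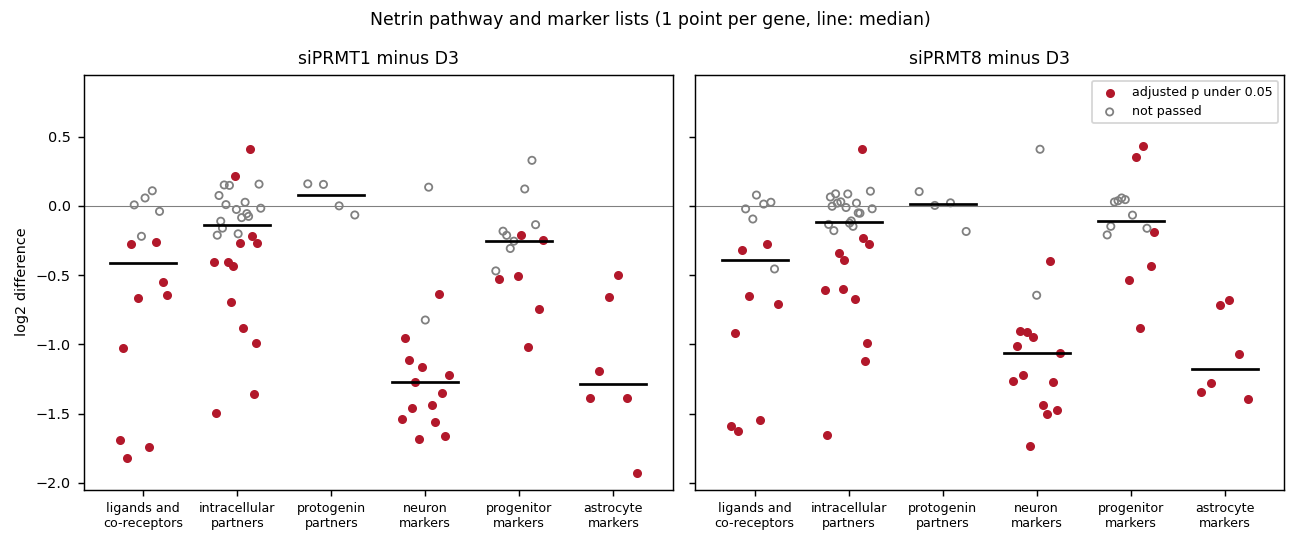
Log2 difference of siPRMT1 (left) and siPRMT8 (right) from D3 for each tested gene of 6 lists, filled where the adjusted p was under 0.05, with a line at the median of each list. Netrin ligands and co-receptors (medians -0.41 and -0.39) lie below the intracellular partners (-0.14 and -0.12) and above the neuron markers (-1.27 and -1.06).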

How the data were processed

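Gene expression was read at day 16 in 12 cultures, 3 each of siPRMT1, siPRMT8, siSCR and D3, with total RNA made into biotin-labelled single-stranded cDNA per the labels' protocols. The authors deposited log2 values for 35556 probe sets on each array, with a scale judged from their span of 0.97 to 13.54. The steps behind them (background correction, summarisation, normalisation) were not given in the sources used here, and the array medians differ by at most 0.023. The interquartile range of the values was narrower in the knockdown arrays (2.89 to 3.04) than in the control arrays (3.06 to 3.13). Quantile normalisation, which evens out this spread, was among the alternatives. There was no detection call, and the number of arrays limits the precision. Levels of different probe sets are not compared with each other.

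Probe sets with 1 symbol in the platform annotation (21789) were kept, with current symbols taken, by gene ID, from RefSeq's GRCm38.p6 table (21698 matched). Of several probe sets of a symbol the one with the highest mean was used, and genes in the lowest 25% by mean (below 5.43) were left out. limma 3.58.1 in R 4.3.3 fitted the 4 group means in 1 model, with Benjamini-Hochberg adjustment over 14953 genes and a threshold of 0.05. SE is the moderated standard error. The fit was tested on simulated data. The genes, lists and tests were chosen with earlier results of these data known.

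Named genes were the 10 genes, the 6 genes most correlated with Prtg and with Igdcc3 (predicted genes left out), up to 2 higher and 2 lower passing genes of each netrin list per knockdown against D3, up to 2 markers per list, and Prmt1 and Prmt8. Alternatives were quantile normalisation, median centring, other filters, averaged probe sets, fits of 2 groups alone, trended and robust variances, the replicate number as a block, the mean of both controls and leaving out each replicate. Deviations of same-numbered arrays correlated at 0.107 to 0.194 for siSCR and D3, so the block is given beside that comparison. For the other comparisons at least 1 pair lay under 0.1.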

Additional observations from a re-analysis of the deposited data

How the results depend on the processing

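Without any 1 array, the number of the 8 genes that passed against D3 was 3 to 6 in siPRMT1 and 2 to 6 in siPRMT8. The number of the 8 that passed between siPRMT1 and siPRMT8 was 0 to 2. Between siSCR and D3 none of the 8 passed under any alternative run. Ntn1 and Igdcc4 kept direction and call against D3 in both lines under all alternatives, and Neo1 in siPRMT1. With the lowest 40% left out Unc5a and Unc5b were not tested. In siPRMT1 Unc5a did not pass with median centring (adjusted p = 0.0648), with no filter (0.0526) or with the replicate number as a block (0.0583), and Unc5b not in the 2-group fit (0.0667) or against the mean of both controls (0.0509). In siPRMT8 Unc5c did not pass with no filter (0.0575) or a trended variance (0.0508), while Neo1 (0.0298) and Unc5a (0.00663) passed in the 2-group fit. Against the mean of both controls the siPRMT8 difference was 0.72 for Igdcc3 and 0.30 for Dcc, since siSCR was lower than D3. Between the knockdowns Unc5d was -0.005 with quantile normalisation and -0.039 with the mean of probe sets, in place of 0.006.

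Without 1 array some differences that did not pass changed sign. They ran from -0.14 to 0.25 for Unc5c in siPRMT1 against D3 and from -0.048 to 0.546 for Dcc in siPRMT1 against siSCR, which was not tested. For siSCR against D3 they ran from -0.045 to 0.01 for Igdcc4, -0.088 to 0.02 for Neo1, -0.137 to 0.084 for Unc5a and -0.195 to 0.15 for Unc5d. Between siPRMT1 and siPRMT8 they ran from -0.105 to 0.002 for Igdcc4, -0.123 to 0.013 for Unc5a, -0.124 to 0.011 for Unc5b and -0.032 to 0.029 for Unc5d. Prtg and Igdcc3, not tested there, ran from -0.736 to 0.209 and from -0.249 to 0.263. In a fit added once the data had been seen, with neither siPRMT1 replicate 2 nor siSCR replicate 1, Prtg and Igdcc3 lay 1.60 and 0.97 above siSCR in siPRMT1, Dcc at -0.25 and Unc5c at -0.13.

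Counts over all tested genes moved more. For siPRMT1 against siSCR 2801 genes passed, 357 in the 2-group fit, 1317 to 3763 without 1 array and 5077 without both named arrays. For siPRMT8 against siSCR 3565 passed and 1804 to 4107 without 1 array, and for siPRMT8 against D3 4135 and 2736 to 4530. For siSCR against D3 23 passed, 9 in the 2-group fit, 15 with the replicate block and 2 to 21 without 1 array. Between the knockdowns 23 passed, 2 in the 2-group fit, 14 with the replicate block and 2 to 862 without 1 array, the highest without siPRMT1 replicate 2. Same-numbered arrays of the other comparisons were not shown to be paired. The causes of these shifts were not tested.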
